A study of Arabidopsis thaliana with 6 samples.

Results

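*BIK1* is the 1 gene whose symbol in the array's probe-to-gene table fits 1 of 12 groups of signalling kinase and receptor symbols. These are the calcium-dependent kinases (CPK), their relatives and the cysteine-rich receptor kinases (both CRK) and CBL-interacting kinases (CIPK). They also hold mitogen-activated protein kinases (MPK) and the kinases above them (MKK and MAPKKK). The others are wall-associated kinases (WAK and WAKL), receptor-like proteins and kinases (RLP and RLK), the PBS1-like kinases (PBL) and *BIK1* itself. Members were chosen by symbol alone, from probe sets that pair with 1 gene. The reference gene table (TAIR10.1) holds 203 genes with such a symbol, and the other 202 of them are not analysed here. A wider search also used that table's symbols and synonyms and dropped the prefix AT. It added 3 protein-coding genes, namely *PBL27* (AT5G18610), *ATMPK8* (AT1G18150) and *ATMPK13* (AT1G07880). The probe-to-gene table itself names *ATMPK8* and *ATMPK13*, with this prefix before the MPK symbol. The account therefore covers 4 kinase genes of 13356 genes with a named probe set, and it cannot describe the kinase families as families.

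Whole seedlings of *Arabidopsis* Col-0, a wild-type accession, were grown for 14 days in liquid medium and treated with the chitin 4mer at 100 µg/mL, while the mock seedlings received an equal amount of water. RNA was taken after 30 min and hybridized to ATH1 arrays, with 3 independent biological replicates per group and hence 6 arrays. A flask held about 500 seeds, so each array measured a pool of whole plants, in which fewer cells of a type and less RNA per cell cannot be told apart. The level of a gene is its deposited signal divided by the median of its array.

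Plants sense fungal chitin at the cell surface through receptor kinases with LysM domains. The signal passes to receptor-like cytoplasmic kinases, which lack an outer domain and are bound to the inner face of the plasma membrane, and from there to calcium channels, NADPH oxidases and cascades of mitogen-activated protein kinases. *BIK1* (botrytis-induced kinase, AT2G39660) encodes such a cytoplasmic kinase. It associates with immune receptors, is phosphorylated when they bind their ligand and phosphorylates the NADPH oxidase RBOHD. These steps act on proteins, and the arrays measured RNA.

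Mock replicate 1 stood apart from the other arrays. Its correlation with them on the log2 scale lay between 0.954 and 0.959 over 17289 probe sets with a mean level of at least 0.25, where all other pairs of arrays lay between 0.982 and 0.990. Log2 fold changes without this array are therefore given for each gene. Of the root markers listed to check the tissue, 3 of 13 are named (*PYK10*, *EXPA7* and *EXPA18*), none of them is at 0, and their summed level, most of it from *PYK10*, was 51.3 to 78.6 in mock and 52.2 to 61.5 in 4mer seedlings. *EXPA18*, an expansin of root hairs, had a mean level of 1.84 in mock and 1.36 with the 4mer, with a log2 fold change of -0.44 that had an unadjusted p under 0.05 and a limma adjusted p of 0.234. Its part in the results was not tested. None of the 14 shoot markers listed is named among the probe sets, so the shoot was not checked.

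*BIK1* was well above the middle of the arrays in both groups and did not pass the test for a difference. Its level was 4.34, 3.98 and 4.22 times the array median in mock replicates 1, 2 and 3, and 4.30, 5.30 and 4.28 in 4mer replicates 1, 2 and 3. The groups overlapped, since 2 of the 3 4mer arrays lay below mock replicate 1, and 4mer replicate 2 was the highest of all. The mean was 4.18 ± 0.19 (SD, n = 3) in mock and 4.62 ± 0.58 (SD, n = 3) in 4mer seedlings. The log2 fold change was 0.14 (SE 0.10). The adjusted p of 0.635 comes from limma, corrected over all probe sets by Benjamini and Hochberg. Of all probe sets, 59.2% differed by more than this between the groups, in either direction. That share takes in dim probe sets, of which 4010 lay below 0.25 on all arrays. It was not counted among probe sets as bright as *BIK1*.

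The arrays bounded the change of *BIK1* closely. Its 95% interval from limma ran from 0.936-fold to 1.30-fold, so a rise or a fall of 1.5-fold, the size at which the study sorted its genes, lay outside it. The interval stayed inside 1.5-fold in both directions when any 1 array was left out. Without 4mer replicate 2 the log2 fold change was 0.037 and the interval ran from 0.886-fold to 1.19-fold. Without mock replicate 1 the log2 fold change was 0.17, the groups no longer overlapped, and the adjusted p from limma was 0.444. With fewer mock arrays groups part more easily, and the share of all probe sets that did so was not counted. For comparison, 0.0659% of all 22746 probe sets were higher and 0.0352% lower at an adjusted p under 0.05, and at an unadjusted p under 0.05 these shares were 4.54% and 6.86%. Among the 4 kinases 0 passed by either measure as reported here.

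**Figure D1:**
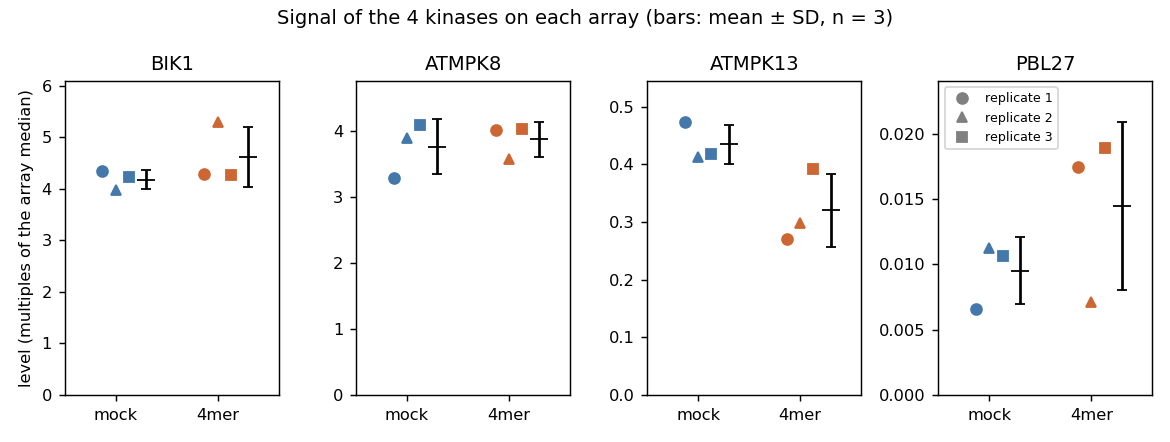
Level of *BIK1*, *ATMPK8*, *ATMPK13* and *PBL27* on each array, in multiples of the array median on linear axes that start at 0 and differ between panels. Points are the 3 replicates of mock (blue) and 4mer (orange) and black bars are mean ± SD (n = 3). The groups overlap in 3 of the 4 genes, and *ATMPK13* was lower on each 4mer array (0.271 to 0.391) than on any mock array (0.413 to 0.473). Such a split was seen in 12.5% of all probe sets.

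*PBL27* belongs to the same class of cytoplasmic kinases as *BIK1* and is known as the kinase that the chitin receptor CERK1 phosphorylates on the way to a mitogen-activated protein kinase cascade. Its probe set gave almost no signal here. The level was 0.0066, 0.0113 and 0.0107 times the array median in mock replicates 1, 2 and 3, and 0.0175, 0.0071 and 0.0189 in 4mer replicates 1, 2 and 3. In deposited units this is a signal of 1.3 to 3.9, and 1.27% of all probe sets were as dim or dimmer on average. The fitted log2 fold change was 0.52 (SE 0.69, limma adjusted p = 0.808), with a 95% interval from 0.480-fold to 4.29-fold, and the log2 fold change was 0.27 without mock replicate 1. With levels below 0.25 set to 0.25 no difference is left, because all 6 arrays lie below that level. The values neither show nor exclude a change of *PBL27*.

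*ATMPK8* encodes a mitogen-activated protein kinase that calmodulin binds and that acts in the response to wounding. Its level was 3.30, 3.90 and 4.10 times the array median in mock replicates 1, 2 and 3, and 4.02, 3.57 and 4.04 in 4mer replicates 1, 2 and 3. The groups overlapped, and mock replicate 1 was the lowest array. The means were 3.77 ± 0.42 (SD, n = 3) and 3.88 ± 0.26 (SD, n = 3). The log2 fold change was 0.046 (SE 0.10, limma adjusted p = 0.899), with a 95% interval from 0.874-fold to 1.22-fold, and it was -0.047 without mock replicate 1.

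*ATMPK13* encodes a mitogen-activated protein kinase known from cell division and lateral root formation. It was the only 1 of the 4 kinases whose groups did not overlap. Its level was 0.473, 0.413 and 0.418 times the array median in mock replicates 1, 2 and 3, and 0.271, 0.298 and 0.391 in 4mer replicates 1, 2 and 3. Every 4mer array was below every mock array, as in 12.5% of all probe sets. In 0 of the 4 kinases did all 4mer arrays lie above all mock arrays, against 7.86% of all probe sets. The difference did not pass the test, with a log2 fold change of -0.46 (SE 0.23, limma adjusted p = 0.487) and a 95% interval from 0.507-fold to 1.05-fold. Without mock replicate 1 the log2 fold change was -0.40. The unadjusted p of *ATMPK13* was under 0.05 in 3 of 14 alternatives, namely with levels below 0.25 set to 0.25, with no variance trend and without 4mer replicate 3, where the limma adjusted p was 0.415, 0.525 and 0.650. The gene is dim, as 31.1% of all probe sets were as dim or dimmer on average.

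The response of *BIK1* was set against that of each of the other 3 kinases through the log2 ratio of their signals within an array, which makes 3 comparisons. The log2 fold change of *BIK1* was 0.60 above that of *ATMPK13* (two-sided exact permutation test, p = 0.1, adjusted p = 0.3), with every 4mer array above every mock array. With 3 arrays against 3, this is the smallest p that the exact test can give, so this test could not reach 0.05. *BIK1* differed from *ATMPK8* by 0.093 (exact permutation test, p = 0.5, adjusted p = 0.6). The comparison with *PBL27* is not given, because that probe set had almost no signal.

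Further genes were taken from lists of receptors and their partners, of calcium channels and sensors, and of possible regulators of mitogen-activated protein kinases. None of the listed LysM receptors and NADPH oxidases is named, so the genes found do not cover the chitin pathway set out above. Of these lists 13 genes are named among the probe sets, and none passed the test in either direction at an adjusted or at an unadjusted p under 0.05. Of the 13 genes, 6 had a log2 fold change above 0 and 7 below, with a median of -0.0021 and a range from -0.28 to 0.17, while the median over all named genes was -0.017. In 1 of the 13 the groups did not overlap, against 20.3% of all probe sets in either direction.

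The receptor list left 3 receptor kinases. *FER* (FERONIA, AT3G51550) encodes a receptor kinase with a malectin-like domain that binds RALF peptides and acts in growth and immunity. Its level was 10.3, 14.2 and 13.7 times the array median in mock replicates 1, 2 and 3, and 14.6, 13.5 and 14.5 in 4mer replicates 1, 2 and 3. The groups overlapped, and mock replicate 1 alone was low. The log2 fold change was 0.17 (SE 0.13, limma adjusted p = 0.631), and 0.031 without mock replicate 1. *THE1* (THESEUS1, AT5G54380), a related receptor kinase that monitors the cell wall, was between 2.73 and 3.21 in mock and between 2.68 and 3.15 in 4mer seedlings, with a log2 fold change of 0.021 and a 95% interval from 0.863-fold to 1.19-fold, and of 0.093 without mock replicate 1. *EFR* (AT5G20480), the receptor of the bacterial elongation factor EF-Tu, was dim and spread widely in mock seedlings, with 0.319, 0.223 and 0.549 in replicates 1, 2 and 3, against 0.433, 0.329 and 0.326 in 4mer seedlings. The log2 fold change of *EFR* was 0.084, and 0.040 without mock replicate 1, and the 95% interval from 0.611-fold to 1.84-fold was too wide to show whether it changed by 1.5-fold.

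The calcium list left 8 glutamate receptor-like genes, which encode cation channels of the plasma membrane and other membranes, and no calcium sensor, pump or oxidase. Of the 8, 3 had a log2 fold change above 0 and 5 below, with a median of -0.030. *GLR3.3* and *GLR3.6*, channels known for calcium signals that travel from wounded leaves, had log2 fold changes of 0.13 and 0.067 (limma adjusted p = 0.705 and 0.916), and of 0.17 and 0.089 without mock replicate 1. The level of *GLR3.3* was 1.31, 1.25 and 1.19 times the array median in mock replicates 1, 2 and 3, and 1.22, 1.41 and 1.49 in 4mer replicates 1, 2 and 3. The groups overlapped in 4mer replicate 1 only.

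*GLR2.7*, *GLR2.8* and *GLR2.9* lie next to each other in the gene table and are known for calcium entry in immune signalling. *GLR2.7* had the smallest p of the 8 channels. Its level was 0.481, 0.634 and 0.634 times the array median in mock replicates 1, 2 and 3, and 0.496, 0.449 and 0.486 in 4mer replicates 1, 2 and 3. Mock replicate 1 lay among the 4mer arrays and the other mock arrays above them. The log2 fold change was -0.28 (SE 0.19, limma adjusted p = 0.607), and -0.41 without mock replicate 1 (limma adjusted p = 0.248, with the unadjusted value then under 0.05). *GLR2.8* was between 0.212 and 0.349 on all arrays, with a log2 fold change of -0.0021, and of 0.047 without mock replicate 1. *GLR2.9* was between 0.0165 and 0.0243, close to no signal, and is the 1 listed gene whose groups did not overlap, with a log2 fold change of -0.26 (limma adjusted p = 0.887), and -0.19 without mock replicate 1. *GLR3.5*, *GLR1.4* and *ATGLR1.2* had log2 fold changes of -0.057, -0.14 and 0.16, with limma's adjusted p at 0.919, 0.784 and 0.871. Without mock replicate 1 they were -0.024, 0.017 and 0.44.

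**Figure D2:**
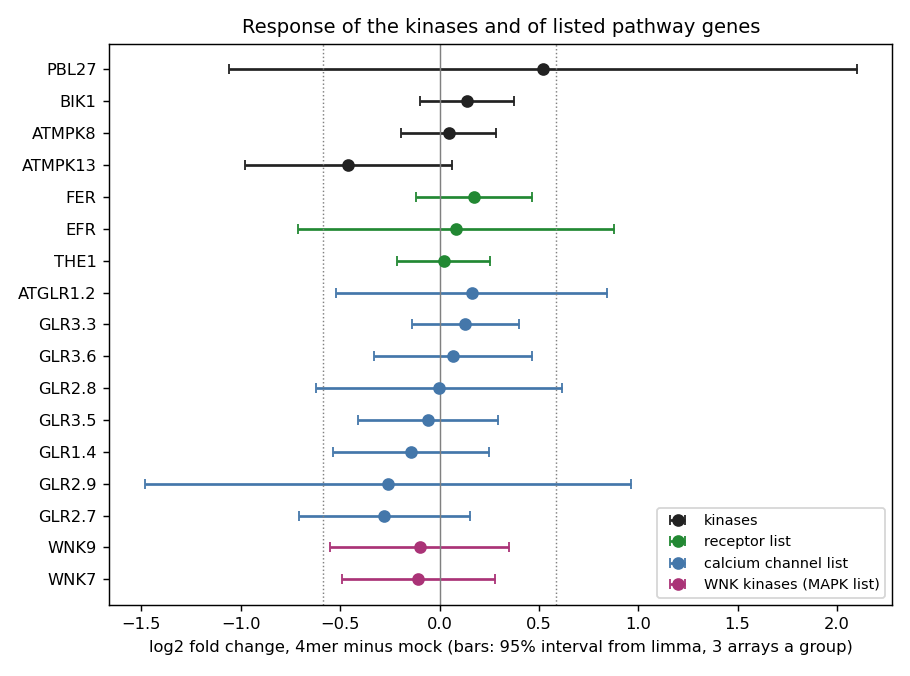
Log2 fold change of 4mer over mock for the 4 kinases and the 13 further listed genes, with 95% intervals from limma (3 arrays per group). Dotted lines mark 1.5-fold in each direction. The interval of each gene includes 0, and in 10 of the 17 genes it lies between the dotted lines. The share of all probe sets with such an interval was not counted.

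The list of possible regulators of mitogen-activated protein kinases left only *WNK7* (AT1G49160) and *WNK9* (AT5G28080), which were listed by their symbol. They encode kinases that lack the usual catalytic lysine. No other gene of that list is named, so the control of mitogen-activated protein kinases was not surveyed. *WNK7* was between 0.645 and 0.878 times the array median in mock and between 0.635 and 0.718 with the 4mer, and its log2 fold change was -0.11 (limma adjusted p = 0.845). *WNK9* was between 0.421 and 0.556 in mock and between 0.415 and 0.479 with the 4mer, and its log2 fold change was -0.10 (limma adjusted p = 0.880). In both genes mock replicate 1 was the highest array, and without it the log2 fold changes were 0.018 and 0.014.

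Across the 17 genes, the 95% interval lay within 1.5-fold in both directions for 10. They were *BIK1*, *ATMPK8*, *FER*, *THE1*, *GLR3.3*, *GLR1.4*, *GLR3.5*, *GLR3.6*, *WNK7* and *WNK9*. The share of all probe sets with such an interval was not counted, here or under the alternatives below. The number therefore cannot be read as a trait of these genes. Without mock replicate 1 the number was again 10, and without any 1 of the other arrays it was 6 to 8. The number also depends on the processing. It was 17 with an offset of 0.25 before log2, which shrinks the changes of dim genes. With levels below 0.25 set to 0.25 it was 12. That count includes *PBL27* and *GLR2.9* only because this floor makes their levels equal on all arrays. It also includes *GLR2.8*, while *GLR1.4* is no longer inside. With no variance trend it was 12, with *GLR2.8* and the almost signal-free *GLR2.9* added, and with the replicate block 8. *BIK1*, *ATMPK8*, *FER*, *THE1*, *GLR3.3* and *GLR3.5* were inside with each array left out. For *ATMPK13*, *PBL27*, *EFR*, *GLR2.7*, *GLR2.8*, *GLR2.9* and *ATGLR1.2* the interval reached past 1.5-fold in at least 1 direction, which was the lower one alone for *ATMPK13* and *GLR2.7*.

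**Figure D3:**
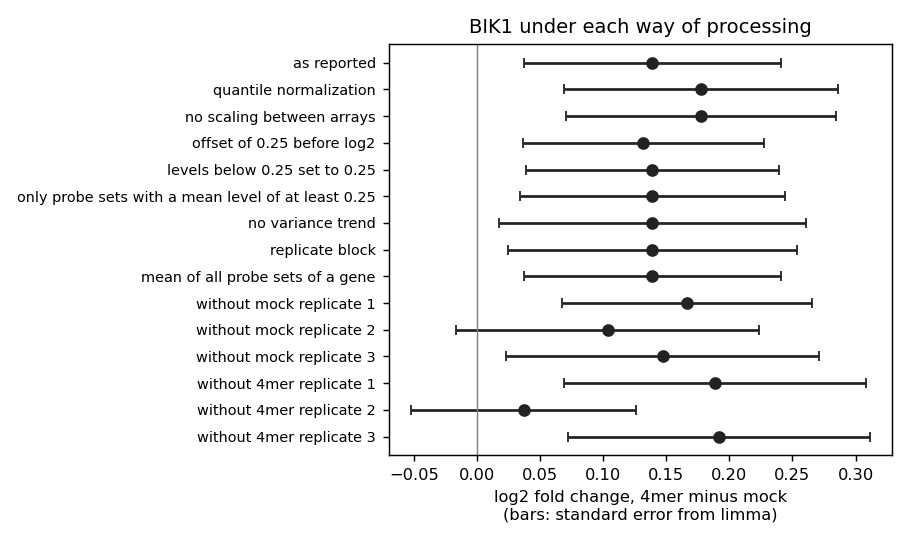
Log2 fold change of *BIK1*, 4mer minus mock, as reported and under each alternative way of processing, with standard errors from limma. All values lie above 0, between 0.037 without 4mer replicate 2 and 0.19 without 4mer replicate 3.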

How the data were processed

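RNA of 6 seedling samples was measured on Affymetrix ATH1 arrays. The authors quantified the scans with MicroArray Suite 5.0 and deposited 1 signal per probe set, a linear intensity, for 22746 probe sets. Detection calls are not given in the sources used here, and precision is limited by the few arrays. After a floor of 0.01 each signal was divided by its array's median and taken to log2. The comparison of 4mer with mock used limma 3.58.1 in R 4.3.3 (eBayes with a variance trend, no covariate), and p-values were adjusted by Benjamini and Hochberg over the whole array, with 0.05 as the threshold. The methods name SAM with no threshold, so its statistic over all 20 label permutations was an alternative.

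Of the probe sets, 13513 pair with 1 gene, 503 with several, none of these with a matching symbol, and 8730 are not listed and stay unnamed. The gene table matched 13436 of them. Each of the 17 genes has 1 probe set. A pseudogene whose clone name resembles an MPK symbol was left out. Members and lists were chosen with earlier results of these data known. The rule for named genes was *BIK1*, *MPK3*, *MPK4* and *MPK6* where named, members with an unadjusted p under 0.05, the brightest and most changed of a family, and up to 4 genes of a list. As few genes were found, all 17 are given, beyond that rule. A planned count of promoter motifs was not made because no sequences were at hand. The scripts were tested on simulated data. The plots come from matplotlib 3.10.9 (Python 3.11.15).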

Additional observations from a re-analysis of the deposited data

How the results depend on the processing

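*BIK1* was above 0 and did not pass the test under all 14 alternatives of its fold change, of which 4 cannot move the fold itself (no variance trend, the replicate block, the filter on dim probe sets and averaging a gene over its probe sets), with log2 fold changes from 0.037 to 0.19 and adjusted p-values from 0.444 to 0.940, and SAM did not call it. In limma none of the 17 genes passed under any alternative, and SAM called 0 of them. Arrays with the same replicate number shared no visible deviation, since their deviations correlated at -0.041, -0.052 and -0.010. These values cannot show whether the arrays were run as pairs. With the replicate block *BIK1* was again at 0.14 (limma adjusted p = 0.710). Its groups did not overlap with no scaling between arrays (1 gene higher) and, when arrays were left out, the number was 0 to 1. The share of all probe sets without overlap was not counted under these alternatives. With the genes of the wider search added as members, 1 gene, *ATMPK13*, was lower without overlap, as were 12.5% of all probe sets, and the median was 0.093. Of 170 fold changes of the 17 genes under the 10 alternatives that can move them, 150 kept their direction, 18 turned, and 2 were at exactly 0 (*PBL27* and *GLR2.9* with levels below 0.25 set to 0.25), all of them without a call. *GLR2.8* was at 0.036 with no scaling between arrays, 0.0061 with an offset of 0.25 and 0.077 with levels below 0.25 set to 0.25. With 1 array left out, log2 fold changes ran from -0.047 to 0.11 for *ATMPK8*, from -0.26 to 0.017 for *GLR1.4*, from -0.16 to 0.20 for *GLR2.8*, from -0.21 to 0.018 for *WNK7*, from -0.19 to 0.014 for *WNK9*, from -0.15 to 0.0043 for *GLR3.5*, from -0.027 to 0.14 for *GLR3.6*, from -0.028 to 0.093 for *THE1*, from -0.22 to 0.43 for *EFR* and from -0.055 to 0.44 for *ATGLR1.2*. Over all probe sets, 15 were higher and 8 lower as reported, 182 and 156 without mock replicate 1, 0 and 0 with the replicate block, 0 and 2 with no variance trend, 5 and 5 with levels below 0.25 set to 0.25, 29 and 16 among probe sets with a mean level of at least 0.25, 0 and 4 by SAM, and at most 1 without any 1 of the other arrays. The cause was not tested.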
